A study of Homo sapiens with 4 samples.

Results

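The genes of cholesterol and fatty acid synthesis were examined in the human pre-B leukemia line Nalm-6. A gene was included when the RefSeq accession of at least 1 probe on the array mapped to it by name. All 30 listed genes had a probe, of 18203 genes with a probe in all, and together they had 48 probes. Of these probes, 47 were well above background on all 4 arrays and all 48 could be compared in each comparison. Each of 4 cultures gave 1 array: unmodified wild-type (WT), a knockout of actin-related protein 5 (Arp5 KO), a knockout of actin-related protein 8 (Arp8 KO), and a culture whose label says Arp8 overexpression (Arp8 OE). Both proteins belong to INO80, a complex that remodels chromatin. The knockouts were made by gene targeting, on both alleles for Arp5, and how many clones stand behind each culture is not given in the sources used here. Arp5 KO cells are reported to grow slightly slower than WT, and conditional loss of Arp8 to be lethal to the cells. The part of growth or viability in the differences below was not tested. The treatment protocol gives heme at 20 uM for 12 hours for every culture. The titles also give heme for every culture, without dose or time, and no label contradicts heme for WT and Arp8 OE. A further label lists both knockouts as not given heme, and the sample source lists Arp5 KO without and Arp8 KO with it. Genotype and heme therefore cannot be told apart where a knockout is compared with WT or with Arp8 OE, and by the sample source not between the knockouts either.

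Cells build cholesterol from acetyl-CoA through mevalonate, squalene and lanosterol, and build fatty acids from the same precursor through malonyl-CoA. Most of these enzymes are transcribed under the control of 2 membrane-bound factors, SREBP-1 (gene SREBF1), which favours fatty acid synthesis, and SREBP-2 (gene SREBF2), which favours sterol synthesis. SCAP escorts the factors out of the endoplasmic reticulum when sterols are low, and the INSIG proteins hold them back when sterols are high. Dividing lymphoid cells depend on these pathways for new membrane.

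Promoter sequences of 3 of the genes are shown with matches to short motifs linked to control of the pathway. Of the motifs marked in capitals INSIG1 and MSMO1 hold CCAAT only, without a match to the sterol element letters searched. The GC box described below is also present in both but is not marked. SREBF2 is shown as the only gene, of the 26 whose promoter was searched, with a match to the sterol element letters searched. INSIG1 is shown as the gene with the largest difference in Arp8 KO that did not rest on a single disagreeing probe. MSMO1 is shown as a sterol enzyme with several CCAAT boxes. The sequences are the 250 bases before the RefSeq start of each gene on assembly GRCh38.p14, on the plus strand, at chr22:41832855-41833104, chr7:155297628-155297877 and chr4:165327419-165327668. Capitals mark matches on either strand to TCACNCCAC, a core of the sterol regulatory element, and to CCAAT, the box bound by NF-Y, a partner of the SREBPs at these promoters.
SREBF2: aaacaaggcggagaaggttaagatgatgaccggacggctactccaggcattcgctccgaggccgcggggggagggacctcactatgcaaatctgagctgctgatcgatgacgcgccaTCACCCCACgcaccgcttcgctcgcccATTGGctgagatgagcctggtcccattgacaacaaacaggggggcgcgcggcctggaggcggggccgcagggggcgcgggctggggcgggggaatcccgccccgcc
INSIG1: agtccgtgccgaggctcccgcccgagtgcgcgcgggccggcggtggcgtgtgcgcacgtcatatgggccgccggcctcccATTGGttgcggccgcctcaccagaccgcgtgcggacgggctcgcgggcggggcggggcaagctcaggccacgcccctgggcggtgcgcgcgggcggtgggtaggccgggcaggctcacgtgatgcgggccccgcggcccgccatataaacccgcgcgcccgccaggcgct
MSMO1: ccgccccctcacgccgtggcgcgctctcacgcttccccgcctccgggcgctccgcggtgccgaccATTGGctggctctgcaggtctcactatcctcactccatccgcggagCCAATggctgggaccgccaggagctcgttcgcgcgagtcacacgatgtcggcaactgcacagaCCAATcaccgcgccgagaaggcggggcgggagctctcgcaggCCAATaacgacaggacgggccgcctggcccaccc

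Promoter windows were at hand for 26 of the 30 genes, 35 windows in all. The sterol element was found in 1 of the 35 (2.86%), that of SREBF2, and in 0.883% of the 35116 windows of all genes. CCAAT was found in 21 of the 35 (60%), against 32% of all windows. Some windows of the same gene overlap, as those of SC5D do, so a site can count more than once. Counted by gene, 18 of the 26 had CCAAT. By gene, 13 of the 15 sterol enzymes with a window had CCAAT, but only 2 of the 5 fatty acid genes, SCD and ACACA, did. GGGCGG, the GC box of Sp1, was found in 31 of the 35 windows (88.6%), against 42.6% of all windows. The sterol element and the CCAAT boxes do not overlap in the sequences shown, and a match is a description of the letters, not of binding.

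Levels are given as log2 of the processed signal over the array's own 75th percentile, so a level of 0 is that percentile, and levels are compared between arrays for 1 probe at a time. A difference is the level on 1 array minus that on another, and a difference of 1 is 2-fold. Every probe of the 30 genes was printed once per array. Probes printed 10 times gave a median technical SD of a difference, between spots, of 0.04 for levels above 0, 0.08 for levels between -3 and 0, and 0.17 for levels below -3 in Arp8 KO against WT. This SD leaves out the spread between cultures, which 1 array per group cannot show, so no test was made.

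The 75th percentile of the processed signal lay between 647.4 and 739.6 on the 4 arrays, between 55.8% and 57.4% of the 41000 probes were well above background, and no spot was saturated. ACTR5, the gene for Arp5, was 19.3-fold below WT in Arp5 KO. ACTR8, the gene for Arp8, was lower in Arp8 KO by log2 differences of -0.53 and -0.68 on its 2 probes, and the array labelled Arp8 OE was at 0.02 and -0.01 from WT, so that name stands only for the label. HMOX1, a gene induced by heme, was below WT on each of the 3 other arrays, with a difference of -2.98 in the Arp5 knockout, -2.91 in the Arp8 knockout and -2.05 under the Arp8 OE label. All 14 probes of 10 B-lineage genes, PAX5 included, were well above background on every array. They were not level between arrays: in Arp8 KO 9 were below WT (64.3%, against 47.3% of all probes tested) and 5 above, at a median of -0.11. Past 2-fold, 2 were lower (14.3%, against 4.35%), CD22 at -2.58 and VPREB1 at -1.26. Only 1 was past 2-fold higher, against 3.37%, DNTT, the terminal transferase, at 1.78. Both RAG1 probes were higher, by 0.98 and 0.79, and CD79A and CD79B were at -0.86 and -0.57. The part of these marker differences in the results for the lipid genes was not tested. Of the T-cell genes, CD3D, CD3G and CD2 stayed below the limit of well above background on each array, and 1 of 2 CD3E probes passed it on Arp8 KO alone. Of the myeloid genes, MPO and ITGAM stayed below it, LYZ passed it on Arp8 KO alone, CSF1R passed it on WT and Arp8 OE, and CD14 was dim on every array, between -3.56 and -3.32.

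In Arp8 KO, INSIG1, SREBF1 and SREBF2 among the regulators and ELOVL6, FADS1 and FADS2 among the fatty acid enzymes were lower than in WT by the larger amounts, while SCAP and FASN were higher and most sterol enzymes differed by less. Of the 48 probes, 37 were lower (77.1%, against 47.3% of the 24578 probes tested). Past 2-fold, 7 were lower (14.6%, against 4.35%) and 0 were higher, against 3.37%. Past 1.5-fold, 16 were lower (33.3%, against 11.2%) and 0 were higher, against 10%. The other 11 probes were higher by smaller amounts, against 52.7% of all higher by any amount. The median difference was -0.29, beside 0.03 over all probes tested. Each count of lower probes includes 1 SC5D probe that disagreed with the other SC5D probes. Without that probe 6 of 47 were past 2-fold lower. The 30 genes were not spread evenly: the median was -0.80 over the 7 probes of the regulators and -0.76 over the 11 probes of the fatty acid enzymes, but -0.17 over the 29 probes of the sterol enzymes. Of those 29, 1 was past 2-fold lower (3.45%), the disagreeing SC5D probe, and 3 were past 1.5-fold lower (10.3%), shares near those of all probes.

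**Figure D1:**
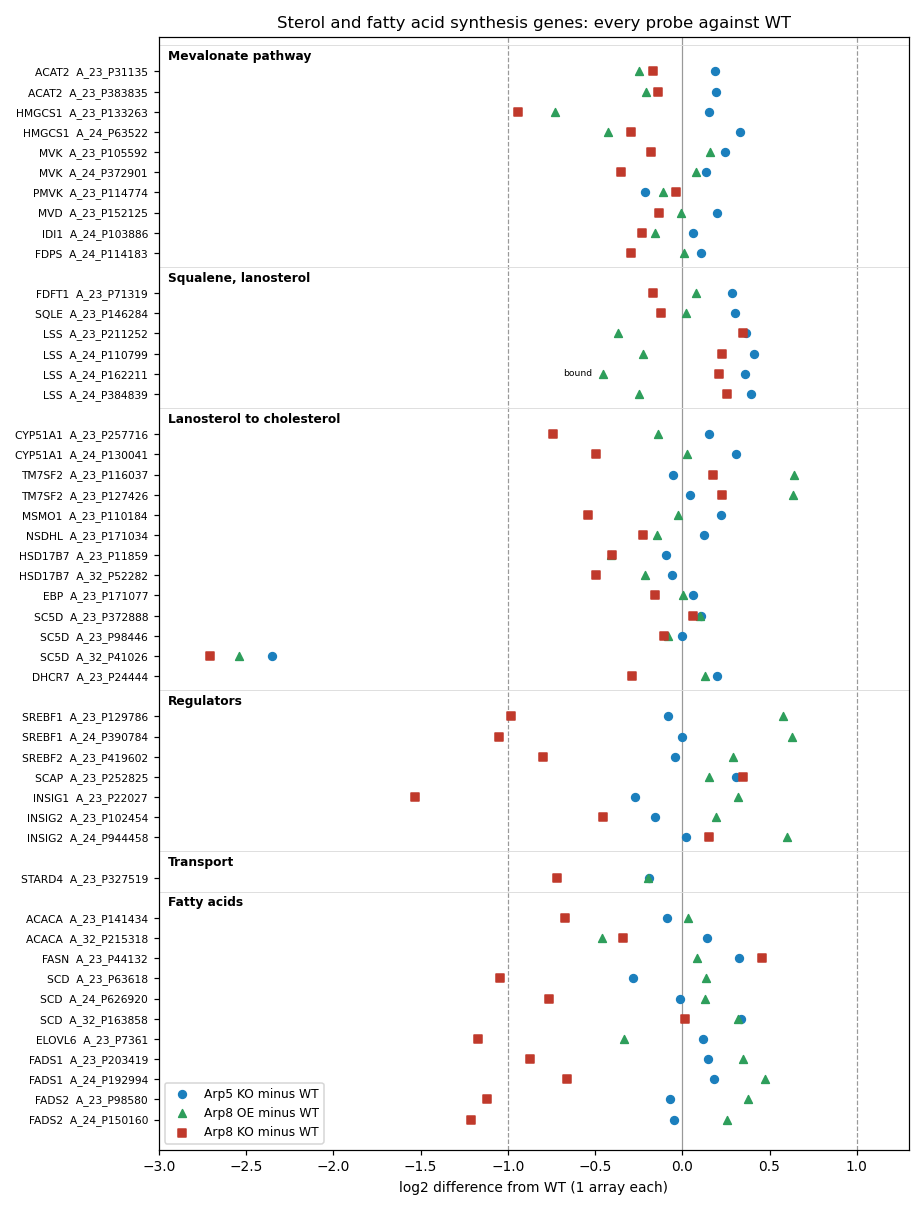
Log2 difference from WT (x axis) for each of the 48 probes of the 30 genes (rows, grouped by role), with circles for Arp5 KO, squares for Arp8 KO and triangles for Arp8 OE, 1 array each; dashed lines mark 2-fold. The squares of SREBF1, SREBF2, INSIG1, ELOVL6, FADS1 and FADS2 lie between -0.66 and -1.53, while all 3 symbols of 1 SC5D probe lie below -2.

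Among the regulators, INSIG1, which retains the SREBPs in the endoplasmic reticulum and is itself an SREBP target, had the largest difference. Its level was 2.37 on the WT array, 2.10 on Arp5 KO, 0.84 on Arp8 KO and 2.69 on Arp8 OE. The Arp8 KO array was the low one, 2.89-fold below WT, and the other 3 arrays lay between 2.10 and 2.69. SREBF1 had 2 probes with nearly the same pattern. On probe A_23_P129786 its level was 4.40 on the WT array, 4.32 on Arp5 KO, 3.42 on Arp8 KO and 4.98 on Arp8 OE. On probe A_24_P390784 the levels were 0.85, 0.85, -0.20 and 1.48 in the same order. Both probes were lowest in Arp8 KO, at differences from WT of -0.98 and -1.05, and highest in Arp8 OE, at 0.58 and 0.63. The first of them had 1 adjacent spot that was bright on WT alone, which means over 2-fold brighter than on each of the others, and the second had none. The single probe of SREBF2 was at 2.68 on the WT array, 2.64 on Arp5 KO, 1.88 on Arp8 KO and 2.97 on Arp8 OE. SREBF2 was thus 1.74-fold below WT in Arp8 KO, and the Arp5 KO and WT arrays differed by -0.04, the size of the technical SD.

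SCAP, the escort protein of the SREBPs, did not share this pattern. Its level was 3.25 on the WT array, 3.56 on Arp5 KO, 3.59 on Arp8 KO and 3.4 on Arp8 OE, so that WT was the lowest array. INSIG2, the second retention protein, gave opposite signs on its 2 probes in Arp8 KO, -0.45 and 0.15, and no direction is given for it there. In Arp8 OE both INSIG2 probes were above WT, by 0.19 and 0.60. All 7 probes of the regulators were higher in Arp8 OE than in WT, against 50% of all probes tested, at a median of 0.32. STARD4, a carrier of cholesterol between membranes that is also an SREBP target, was at -1.5 on the WT array, -1.69 on Arp5 KO, -2.22 on Arp8 KO and -1.70 on Arp8 OE, and was 1.65-fold below WT in Arp8 KO.

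Of the fatty acid genes, FADS2, the delta-6 desaturase of polyunsaturated fatty acids, was past 2-fold lower in Arp8 KO on both probes. Its brighter probe (A_23_P98580) was at 4.68 on the WT array, 4.6 on Arp5 KO, 3.56 on Arp8 KO and 5.05 on Arp8 OE. Its dimmer probe (A_24_P150160) was at -1.46, -1.5, -2.67 and -1.20. The differences from WT were -1.12 and -1.21 in Arp8 KO, but only -0.07 and -0.05 in Arp5 KO. With normexp background correction the dimmer probe was at -0.89, inside 2-fold, and so were the SREBF1 probe and the SCD probe that were past it otherwise, which leaves 4 of the 7 calls. FADS1, the delta-5 desaturase encoded beside it, was at 3.41, 3.55, 2.53 and 3.75 on 1 probe and at 2.90, 3.08, 2.23 and 3.37 on the other, in the same order of arrays. FADS1 was thus lowest in Arp8 KO on both probes, by -0.87 and -0.66 against WT, and highest in Arp8 OE. ELOVL6, which elongates palmitate, was at 0.52 on the WT array, 0.64 on Arp5 KO, -0.64 on Arp8 KO and 0.19 on Arp8 OE, a signal 2.25-fold below WT in Arp8 KO.

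SCD, the delta-9 desaturase that makes oleate, depended on the probe. Probe A_23_P63618 was at 0.15 on the WT array, -0.13 on Arp5 KO, -0.89 on Arp8 KO and 0.29 on Arp8 OE, and the dim probe A_24_P626920 was at -3.82, -3.83, -4.58 and -3.69. These probes differed from WT by -1.05 and -0.76 in Arp8 KO. The third, A_32_P163858, was at 0.67, 1.01, 0.69 and 0.99, and differed by 0.02. ACACA, the cytosolic acetyl-CoA carboxylase that makes malonyl-CoA, was lower in Arp8 KO on both probes, by -0.67 and -0.34. FASN, the fatty acid synthase, went the other way. It was at -1.09 on the WT array, -0.77 on Arp5 KO, -0.63 on Arp8 KO and -1.01 on Arp8 OE, and its difference from WT in Arp8 KO, 0.46, was the highest of the 48 probes.

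**Figure D2:**
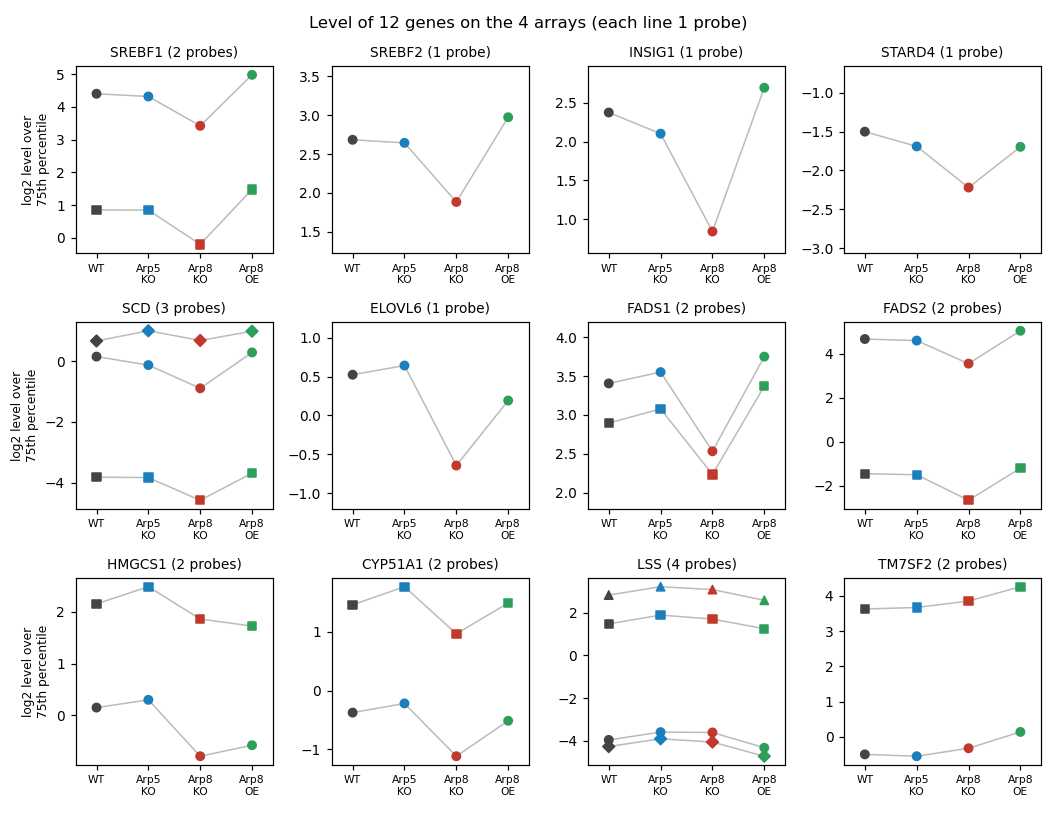
Log2 level over the array's 75th percentile (y axis) of 12 of the genes on the 4 arrays (x axis), where each line joins the values of 1 probe and marker shapes tell the probes of a gene apart. SREBF1, SREBF2, INSIG1, STARD4, ELOVL6, FADS1 and FADS2 dip below WT on the Arp8 KO array, 1 of the 3 SCD lines returns there to its WT level, and LSS and TM7SF2 run differently.

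The enzymes of the mevalonate pathway differed less. In Arp8 KO all 10 of their probes were below WT, against 47.3% of all probes tested, at a median of -0.21, but only 1 of the 10 was past 1.5-fold lower, a share near the 11.2% of all probes. In Arp5 KO 9 of the 10 were higher, against 50.7% of all, at a median of 0.17. HMGCS1, the HMG-CoA synthase, had the largest difference, but its probes disagreed in size. Probe A_23_P133263 was at 0.15 on the WT array, 0.30 on Arp5 KO, -0.79 on Arp8 KO and -0.58 on Arp8 OE, and probe A_24_P63522 was at 2.16, 2.49, 1.86 and 1.73. Both were lower than in WT in Arp8 KO (-0.94 and -0.29) and in Arp8 OE (-0.73 and -0.43). The 2 probes of ACAT2, the cytosolic thiolase that makes acetoacetyl-CoA, differed from each other by at most 0.04 in any comparison with WT, with 0.19 on both for Arp5 KO, -0.17 and -0.14 for the Arp8 knockout, and -0.25 and -0.21 under the Arp8 OE label. MVK, the mevalonate kinase, was at -0.18 and -0.35 in Arp8 KO. MVD, the decarboxylase that forms isopentenyl diphosphate, was at -0.13, IDI1, its isomerase, at -0.23, and FDPS, the farnesyl diphosphate synthase, at -0.29. PMVK, the phosphomevalonate kinase, was the probe of this pathway that was lower in Arp5 KO, by -0.22, and in Arp8 KO it was at -0.03, within the technical SD.

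FDFT1, the squalene synthase, and SQLE, the squalene epoxidase, had small differences in Arp8 KO, of -0.17 and -0.12. Both were higher in Arp5 KO, by 0.28 and 0.30. LSS, which closes squalene epoxide to lanosterol, was higher in Arp8 KO, as TM7SF2 was, and lower in Arp8 OE, and its 4 probes shared each sign. On the brightest probe (A_24_P384839) it was at 2.82 on the WT array, 3.21 on Arp5 KO, 3.07 on Arp8 KO and 2.57 on Arp8 OE. Over the 4 probes the differences from WT lay between 0.36 and 0.41 in Arp5 KO, between 0.21 and 0.35 in Arp8 KO, and between -0.45 and -0.23 in Arp8 OE, where the lowest is a bound because that probe was not well above background.

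Between lanosterol and cholesterol, 10 of 13 probes were lower in Arp8 KO, against 47.3% of all probes tested, at a median of -0.29. The 1 past 2-fold was the disagreeing SC5D probe. CYP51A1, the lanosterol demethylase and a heme-containing cytochrome P450, was at -0.37 on the WT array, -0.22 on Arp5 KO, -1.12 on Arp8 KO and -0.51 on Arp8 OE on 1 probe and at 1.46, 1.76, 0.96 and 1.49 on the other. It was lowest in Arp8 KO on both, at differences of -0.74 and -0.49 from WT. MSMO1, the C-4 methyl sterol oxidase whose promoter is shown above, was at -1.02, -0.79, -1.55 and -1.04 in the same order of arrays. Its difference in Arp8 KO was -0.54, and 1 adjacent spot was bright on the Arp8 KO array alone. HSD17B7, the 3-ketosteroid reductase, was lower in Arp8 KO on both probes, by -0.41 and -0.49, although these probes may also bind transcripts of a near-identical pseudogene. NSDHL, the C-3 sterol dehydrogenase, was at -0.23, EBP, the delta-8 isomerase, at -0.16, and DHCR7, the last reductase on the route through 7-dehydrocholesterol, at -0.29.

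TM7SF2, a C-14 sterol reductase, was the enzyme of this stretch that was higher in Arp8 KO on both probes, by 0.17 and 0.23. It was highest in Arp8 OE: the probes were at -0.50 and 3.63 in WT and at 0.14 and 4.26 in Arp8 OE, differences of 0.64 and 0.63. SC5D, the C-5 desaturase, had 3 probes. Probes A_23_P98446 and A_23_P372888 lay between -0.11 and 0.11 of WT on all 3 other arrays. Probe A_32_P41026 was at -1.78 on the WT array, -4.13 on Arp5 KO, -4.49 on Arp8 KO and -4.32 on Arp8 OE. It was thus high on the WT array only, and 2 of its adjacent spots were also bright on WT alone. Their part in its difference was not tested. It was the only probe of the 30 genes past 2-fold in Arp5 KO and the only one past 2-fold in Arp8 OE. In all, 7 of the 48 probes had an adjacent spot bright on 1 array alone. Beside those named above they were of NSDHL (Arp5 KO) and the dimmer probes of ACACA, SCD and FADS2 (all Arp8 OE).

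Probes of a gene could be compared for 14 genes. In Arp8 KO against WT the signs matched for 11 of them, and for 9 the probes lay within 0.25 of each other. The exceptions in sign were SC5D, SCD and INSIG2. The span between probes, at a median of 0.19, was above the technical SD of 0.08, so a single-probe difference of that size, such as those of FDFT1, SQLE or EBP, is within the spread between probes of a gene.

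**Figure D3:**
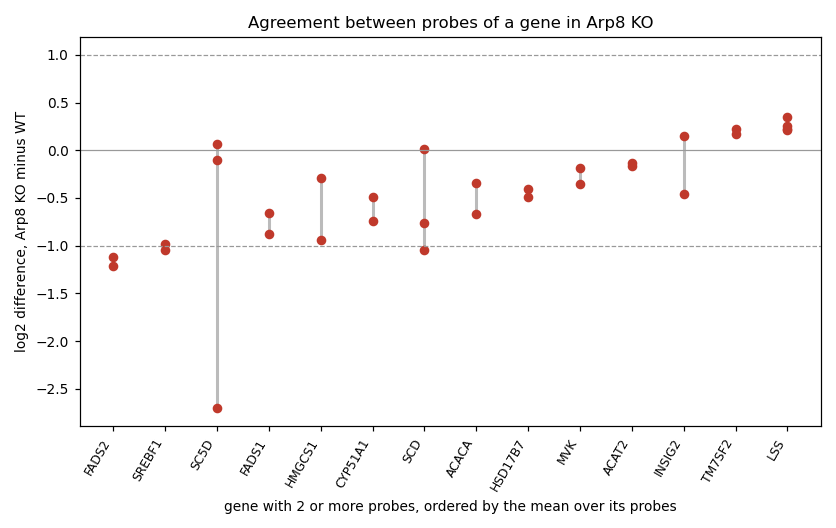
Log2 difference of Arp8 KO from WT (y axis) for each probe of the 14 genes with several probes (x axis, ordered by the mean), with a bar from the lowest to the highest probe; dashed lines mark 2-fold. The probes of FADS2, SREBF1, TM7SF2 and LSS lie within 0.14 of each other, while those of SC5D span 2.77.

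In Arp5 KO most sterol enzyme probes were higher than in WT, but by small amounts. None of the 29 was past 1.5-fold higher, against 4.15% of all probes tested. LSS alone holds 4 of the 29, and by gene means 14 of 18 sterol enzymes were higher and 4 lower. Of the 29 sterol enzyme probes 23 were higher than in WT (79.3%, against 50.7% of the 24285 probes tested), with a median of 0.16 beside 0.00 over all probes, and the highest difference was 0.41. None of the 48 probes was past 2-fold higher, against 1.69% of all, and 1 was past 2-fold lower, the disagreeing SC5D probe, against 2.01%. The probes of SREBF1 lay within 0.08 of WT in Arp5 KO, SREBF2 was at -0.04 and INSIG1 at -0.27. The fatty acid enzymes were at a median of 0.12, between -0.28 and 0.34. Among the 28 sterol enzyme probes well above background on all 4 arrays, Arp5 KO was the highest array for 21 (75%), against 16.3% of the 21783 such probes. 

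In Arp8 OE no probe was past 2-fold higher, against 2.96% of all tested, and 1 was past 2-fold lower, the same SC5D probe, against 2.15%. Past 1.5-fold, 4 were higher, against 7.93%, and 2 were lower, against 5.67%. The 4 were both probes of TM7SF2 and 1 each of SREBF1 and INSIG2, and the 2 were of HMGCS1 and SC5D. Of the 11 fatty acid enzyme probes 9 were higher than in WT, against 50% of all, at a median of 0.14, but 0 were past 1.5-fold, with FADS1 at 0.35 and 0.47 and FADS2 at 0.38 and 0.25. The sterol enzymes were at a median of -0.11, with HMGCS1 and LSS lower and TM7SF2 higher on each of their probes. The 3 comparisons with WT share the WT array, so a value that was off on that array enters all 3.

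Arp8 KO was therefore also set against the 2 other arrays. Among the 47 probes well above background on all 4 arrays, Arp8 KO was the lowest array for 31 (66.0%), against 28.7% of all such probes, and the highest for 2 (4.26%), against 34.0%. These comparisons all share the Arp8 KO array, so a value that was off there enters each of them. Against Arp8 OE, 36 of the 48 probes were lower (75%, against 47.9%) and 9 were past 2-fold lower (18.8%, against 3.78%), at a median of -0.30. The 9 were the single probes of INSIG1 (-1.85) and SREBF2 (-1.09), both probes of SREBF1 (-1.56 and -1.68), FADS1 (-1.22 and -1.14) and FADS2 (-1.5 and -1.46), and 1 SCD probe (-1.18). The sterol enzymes showed less of this: 0 of their 29 probes were past 2-fold lower, their median was -0.14, and the 4 LSS probes were higher in Arp8 KO, by 0.45 to 0.72. Against Arp5 KO, 42 of the 48 probes were lower (87.5%, against 46.9%) and 7 were past 2-fold lower (14.6%, against 3.18%). There the sterol enzymes were at a median of -0.35, with HMGCS1 at -1.09 and -0.63 and CYP51A1 at -0.90 and -0.80. The lower SREBF1, SREBF2, INSIG1, FADS1, FADS2 and ELOVL6 signals in Arp8 KO were thus lower against each of the 3 other arrays, while the lower sterol enzymes were more marked against Arp5 KO than against WT or Arp8 OE.

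**Figure D4:**
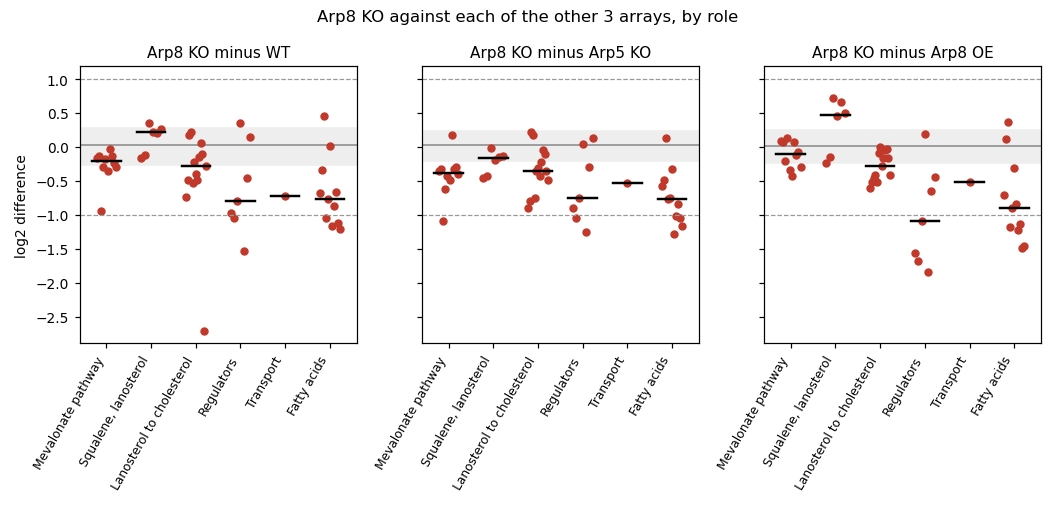
Log2 difference of Arp8 KO (y axis) from WT, Arp5 KO and Arp8 OE (panels) for the 48 probes by role (x axis); each point is 1 probe, black bars are medians, the grey band runs from the lower to the upper quartile of all probes tested with their median as a line, and dashed lines mark 2-fold. The medians of the regulators and of the fatty acid enzymes lie between -0.76 and -1.09 in all 3 panels.

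Further genes of lipid metabolism were taken from 4 further lists, with 31 of 32 genes having a probe. In Arp8 KO against WT, of the 10 probes tested for other lipid synthesis enzymes none was past 2-fold, at a median of -0.10, and neither was any of the 10 probes for fatty acid oxidation, at -0.09. Counts of 0 in lists of this size say little beside the 4.35% of all probes past 2-fold lower and the 3.37% past it higher. Of the 7 probes for proteins that process or degrade the SREBP system 1 was past 2-fold lower, that of MBTPS2, the site-2 protease that releases the SREBPs. MBTPS2 was at -2.99 on the WT array, -3.46 on Arp5 KO, -4.01 on Arp8 KO and -3.52 on Arp8 OE, a difference of -1.02 in Arp8 KO on a dim probe. MBTPS1, the site-1 protease, was at 0.23, 0.37 and 0.14 on its 3 probes. None of the 15 probes for sterol export and storage was past 2-fold in either knockout. That too says little, since in Arp5 KO 2.01% of all probes were past 2-fold lower and 1.69% higher. In Arp8 OE 1 of the 15 was past 2-fold higher, against 2.96% of all, that of ABCG1, which exports cholesterol. It was at 0.73 on the WT array, 0.53 on Arp5 KO, 1.22 on Arp8 KO and 1.84 on Arp8 OE. ABCA1, which also exports cholesterol, was above WT in Arp8 OE by 0.21 on a dim probe, at -4.38 in WT, and by 0.76 on the other. The list as a whole did not lean that way. Of its 15 probes 8 were higher in Arp8 OE than in WT and 7 lower, at a median of 0.02.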

How the data were processed

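Total RNA of 4 Nalm-6 cultures, 1 per genotype, was labelled with Cy3 and hybridised to 1-colour Agilent arrays. The deposited scanner files give linear intensity for each spot. Per the file headers it was extracted by Feature Extraction 10.10.1.1 (Agilent), background-subtracted and detrended within each array but not normalized between arrays. The deposited series matrix holds the same intensity times 1 factor per array (1.99 to 2.29) and served as an alternative. Its direction is that of the signal, and why these factors were used is not given in the sources used here.

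Each processed signal was divided by the 75th percentile of its array, control spots excluded, and log2 was taken. Outlier spots (69 to 76 per array) were left out and spots of a probe averaged. A probe counted as well above background with 50% or more of its spots so marked, and it entered a comparison when that was true of either array. A dim value was raised to the lowest value well above background on its array, which makes the difference a bound. Of the 41000 probes, 27210 matched a gene symbol by RefSeq accession (assembly GRCh38.p14). The file headers name hg19, so gene coordinates are given only for RefSeq promoter sequences. Spots were adjacent if within 20 pixels. The calculation was tested on simulated data.

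No test was possible, since every group is a single array. The array number limits the precision. Calls are differences past 2-fold, read against the share of all probes past it. The named genes are the 30 genes, genes of 4 further lists past 2-fold on a probe well above background on both arrays, and the targeted genes and HMOX1 as checks of the labels. ABCA1, MBTPS1 and the cell type markers were added to these. The genes, lists and motifs were chosen with earlier results of these data known. Arp8 OE as the reference was planned. Arp5 KO as the reference and leaving out 1 SC5D probe were chosen after seeing the data. The software was Python 3.11.15, numpy 2.4.6, pandas 2.3.3, scipy 1.17.1, R 4.3.3 and limma 3.58.1. Normexp used the median spot signal and local background.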

Additional observations from a re-analysis of the deposited data

How the results depend on the processing

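Other scalings (to the median, by quantiles, by cyclic loess), normexp with an offset of 50, the authors' series matrix, stricter and absent filters on dim probes, averages over each gene's probes, a limit of 1.5-fold, omission of probes beside a spot bright on 1 array, and other reference arrays were tried. No paired analysis was possible because each group had 1 array. For the same reason no replicate could be left out. The other scalings and the series matrix shifted no single probe by more than 0.06. In Arp8 KO, the 7 probes past 2-fold lower became 4 under normexp (SC5D, INSIG1, ELOVL6 and 1 FADS2 probe), 4 by gene means and 16 at 1.5-fold. The median of -0.29 moved to -0.23 without probes beside a bright spot and to -0.43 against Arp5 KO. The 1 probe past 2-fold lower in Arp5 KO, that of SC5D, became 0 by gene means, without probes beside a bright spot, against Arp8 OE and without that probe, and its difference reversed to 0.19 against Arp8 OE. In Arp8 OE the 1 lower probe became 0 by gene means, without probes beside a bright spot and without the SC5D probe. At 1.5-fold, 2 were lower and 4 higher in place of 0. Of 1151 recomputed single-probe differences, 979 moved by less than the technical SD and 171 moved further. Many of the 979 could hardly move. The series matrix differs by 1 factor per array, which the scaling removes, and nearly all probes passed the filters on dim probes. These settings left 144, 143 and 144 unmoved. Of the 171, 77 came from Arp8 OE and 39 from Arp5 KO as the reference, which are other comparisons. Normexp, which changes the signal itself, moved 51 and left 93 unmoved. The causes of these shifts were not tested. Dim probes have the least signal over background and the largest technical SD.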
